A study of Mus musculus with 8 samples.

Results

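The genes described here are 10 feedback inhibitors of the ERK pathway: the phosphatase genes Dusp1, Dusp2, Dusp4, Dusp5 and Dusp6, the Sprouty genes Spry1, Spry2 and Spry4, and the Sprouty-related genes Spred1 and Spred2. They were chosen by name, with earlier results of these data known, and all 10 were found among the 18102 genes of the deposited table. All 10 also had a mean value of at least 10 over the libraries, the minimum for testing. Dusp2 reached that minimum (mean 21.0) only through its TGFβ libraries, so its presence among the tested genes already required a difference.

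Growth factor receptors switch on RAS, RAF, MEK and then the kinase ERK, and active ERK induces several of its own inhibitors. DUSP proteins of this class remove phosphate from ERK and related kinases, Sprouty proteins act between the receptor and RAF, and SPRED proteins bring the RAS inhibitor neurofibromin to the membrane. Some of these transcripts are short-lived, follow ERK activity in many epithelial cells and are widely used as readouts of the pathway. This does not hold for all 10. TGFβ also engages the ERK pathway besides its SMAD proteins.

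RNA sequencing covered 8 libraries of NMuMG, a mammary epithelial cell line of the mouse that undergoes an epithelial-to-mesenchymal transition under TGFβ. They form 4 groups of 2: KO-labelled cells with 100 pM TGFβ for 1.5 h, KO-labelled cells with 2.5 µM SB505124 for 6 h, WT cells with the same TGFβ treatment, and WT cells with the same SB505124 treatment. All groups were starved of serum for 6 h, and the label KO refers to RREB1, a zinc finger factor that acts downstream of RAS. SB505124 inhibits the TGFβ type I receptor kinase, so its libraries are not untreated cells, and drug and duration differ together between the treatments. Every KO column carries the code KO1, read here as 1 clone, so effects of RREB1 and of that clone cannot be told apart. Nothing in the labels tells whether the 2 replicates of a group were cultured apart, and the spread behind the p-values may thus be technical.

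Libraries held 25144204 to 32143113 reads. Rreb1 was not lower in the libraries labelled KO: it had 2481 and 2241 normalised reads in KO-labelled and 1959 and 1769 in WT libraries under TGFβ, and 1327 and 1343 against 1055 and 1033 under SB505124. The label is therefore used only as a name. Protein was not measured, so these counts cannot tell whether RREB1 protein was lost. All 4 early SMAD targets on the fixed list (Smad7, Skil, Pmepa1 and Ski) rose under TGFβ in both genotypes, with a median log2 fold change of 2.98 in KO-labelled and 2.69 in WT cells. Of the epithelial markers, Krt8, Krt18 and Cdh1 were abundant in every library, while Epcam was low (0 to 37) and Cldn3 was absent from the deposited table. Summed endothelial and adipocyte markers stayed between 2.89 and 40.0 normalised reads and leukocyte markers (mainly Lyz2 and Cd68, with Ptprc near 0) between 464 and 680. Basal markers, nearly all Mylk, summed to 1909 to 2338 in KO-labelled and 529 to 807 in WT libraries, and fibroblast markers to 141.5 to 183.5 under TGFβ and 34.4 to 44.9 under SB505124 in KO-labelled cells, and 165 to 169.5 and 126 to 131 in WT cells. The part of these shifts in the results was not tested. In bulk RNA, fewer cells with a transcript and less of it per cell cannot be told apart. Library preparation was unstranded, so transcripts of the opposite strand could not be separated. Such genes are annotated opposite Dusp1 (Ergic1 and Gm8225), Dusp5 (AC137853.2), Spry1 (Gm42922), Spry4 (Gm27369 and Gm27804) and Rreb1 (Gm46411).

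Dusp2 is left out of the counts of TGFβ responses because it was tested only by virtue of its TGFβ libraries, and its levels are given as a description. The members were chosen with earlier results of these data known, so the shares below are a description and not a test of the set. Rises and falls are those of TGFβ libraries against SB505124 libraries. Between these, 7 of the other 9 genes were called in KO-labelled cells, where 30.9% of all tested genes were called. In WT cells 8 of 9 were called, where 43.3% of all tested genes were. In KO-labelled cells 3 rose (Dusp4, Dusp5 and Spred2) and 4 fell (Dusp1, Dusp6, Spry1 and Spry2), where 15.1% of all 12498 tested genes rose and 15.8% fell. In WT cells 1 rose (Dusp4) and 7 fell (Dusp1, Dusp6, Spry1, Spry2, Spry4, Spred1 and Spred2), against 20.2% and 23.2% of all genes. The median log2 fold change of the 9 was -0.29 in KO-labelled and -0.64 in WT cells, and that of all tested genes was -0.02 and -0.01. The response itself differed between genotypes for 4 of the 10: it was higher in KO-labelled cells for Dusp4, Dusp5 and Spred2 and lower for Dusp6, where 2.82% of all genes were called, 2.25% higher and 0.568% lower. All calls are limma adjusted p-values under 0.05, with Benjamini-Hochberg adjustment over all tested genes, on log2 of the normalised count plus 1.

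**Figure D1:**
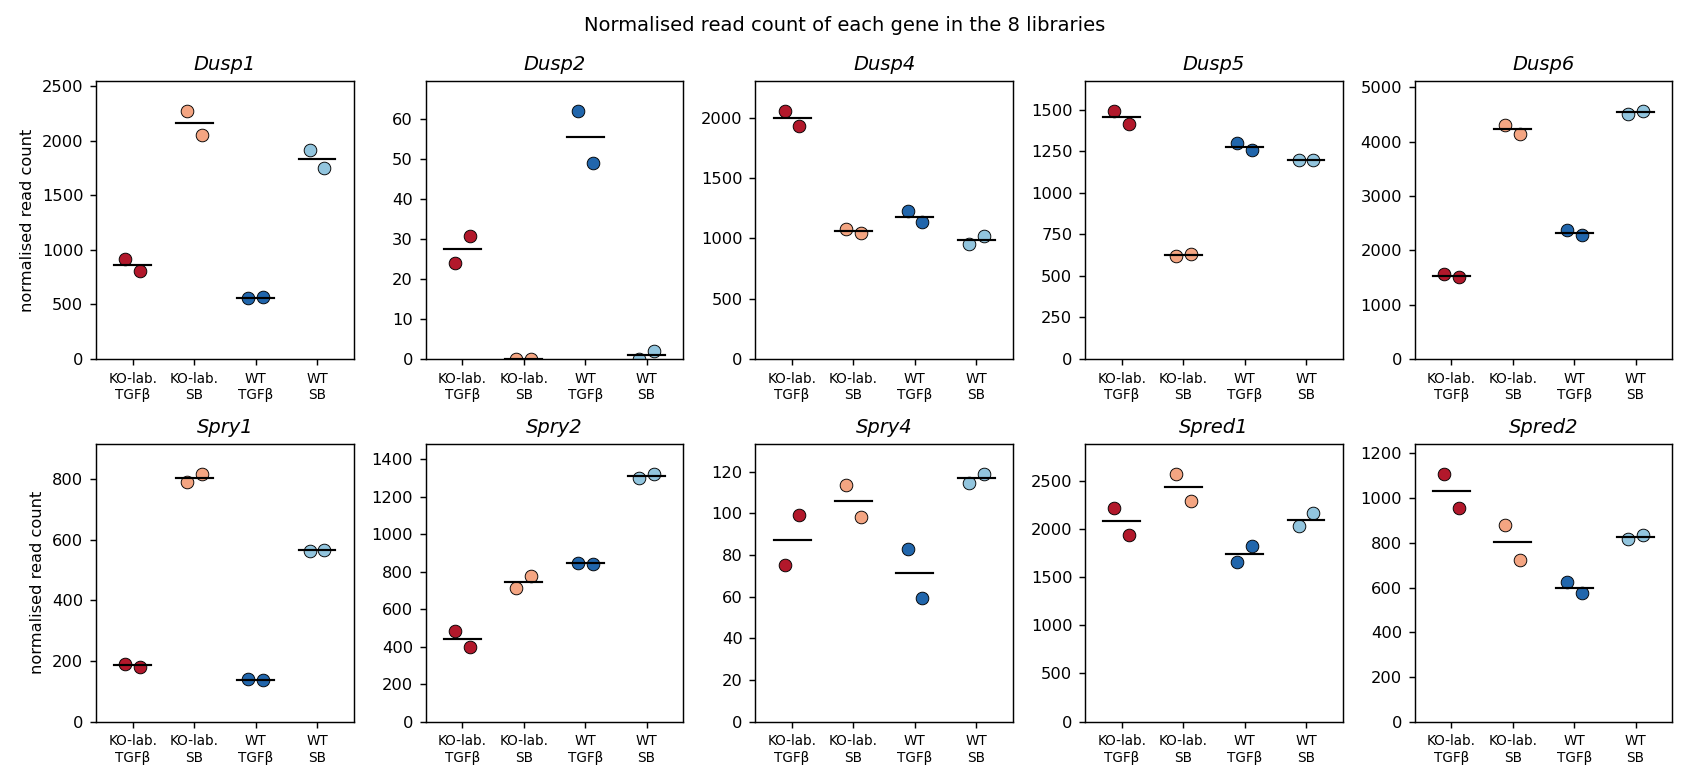
Normalised read count (vertical axis, linear from 0) of the 10 genes, 1 panel each, with a point for each of the 8 libraries and a bar for the mean of the 2 libraries of a group. The columns are KO-labelled TGFβ, KO-labelled SB505124, WT TGFβ and WT SB505124; Dusp5 is low only under SB505124 in KO-labelled cells, at 619 and 629, and Spred2 is highest under TGFβ in KO-labelled cells, at 1110 and 954.

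The nuclear phosphatases split. Dusp1 (chr17:26505590-26562128, GRCm38, minus strand) encodes an inducible phosphatase of p38, JNK and ERK. It had 920.3 and 809.9 normalised reads under TGFβ and 2275.5 and 2056.5 under SB505124 in KO-labelled cells, and 557 and 568 under TGFβ and 1915 and 1750.3 under SB505124 in WT cells. Every TGFβ library lay below every SB505124 library of either genotype. The fall was 2.50-fold in KO-labelled cells (log2 fold change -1.32 ± 0.09 SE, n = 2 against 2, limma adjusted p = 1.35e-09) and 3.25-fold in WT cells (-1.70 ± 0.09, limma adjusted p = 4.79e-11). The difference of these responses, 0.38 (95% interval 0.10 to 0.65), did not pass after adjustment (limma adjusted p = 0.138).

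Dusp2 (chr2:127336159-127338376, plus strand), known for its induction in activated immune cells, was nearly silent under SB505124. Under TGFβ it had 24.1 and 30.8 normalised reads in KO-labelled and 62.1 and 49.1 in WT libraries. Under SB505124 both KO-labelled libraries had 0 reads, and the WT libraries had 0 and 2.00 normalised reads. With 3 reads set over the empty group, reads under TGFβ were 20.3-fold higher in KO-labelled cells. In WT cells they were 55.5-fold higher (95% counting interval 15 to 464). No test of these rises is given, since the gene was tested only because it was high under TGFβ. Under TGFβ the ratio of KO-labelled to WT reads was 0.489 (55 and 102 reads, counting interval 0.345 to 0.685), and the libraries did not overlap, but limma did not call it (limma adjusted p = 0.144). It passed by edgeR on recovered reads (adjusted p = 0.00414), with a pseudocount of 8 (limma adjusted p = 0.00761) and with only the TGFβ libraries fitted (limma adjusted p = 9.52e-04), so the call for Dusp2 depends on the setting. The intervals cover counting error only, and the 20.3-fold value takes the reads under TGFβ as counted.

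Dusp4 (chr8:34807297-34819894, plus strand) encodes a nuclear phosphatase of ERK and JNK. It had 2056 and 1929 normalised reads under TGFβ and 1078 and 1045 under SB505124 in KO-labelled cells, and 1226 and 1134 under TGFβ and 951 and 1016 under SB505124 in WT cells. The KO-labelled TGFβ libraries stood apart above the other 6, which spanned 951 to 1226. The rise was 1.88-fold in KO-labelled cells (0.91 ± 0.09, limma adjusted p = 9.99e-08) and 1.2-fold in WT cells (0.26 ± 0.09, limma adjusted p = 0.0187). The WT call was lost without WT SB505124 replicate 1 (limma adjusted p = 0.159) or WT TGFβ replicate 1 (limma adjusted p = 0.114). The responses differed by 0.65 ± 0.12 (limma adjusted p = 0.00418, with limma adjusted p = 0.0525 without WT SB505124 replicate 2 and 0.0926 without the variance trend).

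Dusp5 (chr19:53529109-53542431, plus strand), which encodes a nuclear phosphatase specific for ERK, showed the largest difference of responses among the 10. Its normalised counts were 1492 and 1416 under TGFβ and 619 and 629 under SB505124 in KO-labelled cells. In WT cells they were 1298 and 1256 under TGFβ and 1196 and 1198 under SB505124. The KO-labelled SB505124 libraries were the low ones, and the other 6 lay between 1196 and 1492. Dusp5 rose 2.33-fold in KO-labelled cells (1.22 ± 0.08, limma adjusted p = 1.05e-09). In WT cells the libraries did not overlap, but the log2 fold change of 0.09 ± 0.08 did not pass (95% interval -0.08 to 0.27, limma adjusted p = 0.389). The responses differed by 1.13 ± 0.12 (limma adjusted p = 2.73e-05), a call kept in all 18 alternatives run.

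The genotype difference of Dusp5 stood mostly under SB505124. Its level was 1.92-fold lower in KO-labelled cells there (-0.94 ± 0.08, limma adjusted p = 1.8e-08), and under TGFβ the log2 difference was 0.19 ± 0.08 (limma adjusted p = 0.0587). Dusp4 had the reverse arrangement. It was 1.69-fold higher in KO-labelled cells under TGFβ (0.76 ± 0.09, limma adjusted p = 3.77e-07) and did not pass under SB505124 (0.11 ± 0.09, 95% interval -0.07 to 0.29, limma adjusted p = 0.283).

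Dusp6 (chr10:99263231-99267489, plus strand) encodes the cytoplasmic phosphatase specific for ERK and is a standard readout of ERK activity. It had 1557 and 1506 normalised reads under TGFβ and 4315 and 4139.8 under SB505124 in KO-labelled cells, and 2374 and 2284 under TGFβ and 4518 and 4568 under SB505124 in WT cells. TGFβ libraries were low in both genotypes, and lowest in KO-labelled cells. The fall was 2.76-fold in KO-labelled cells (-1.46 ± 0.07, limma adjusted p = 1.53e-11) and 1.95-fold in WT cells (-0.96 ± 0.07, limma adjusted p = 8.56e-09). The responses differed by -0.50 ± 0.11 (limma adjusted p = 0.0114). This call was fragile: leaving out either WT SB505124 library gave limma adjusted p = 0.0989 and 0.0733, leaving out either KO-labelled TGFβ library gave 0.0526 and 0.0507, and dropping the variance trend gave 0.114. Under TGFβ Dusp6 was 1.52-fold lower in KO-labelled than in WT cells (-0.60 ± 0.07, limma adjusted p = 1.22e-06), and under SB505124 the difference of -0.10 ± 0.07 did not pass (limma adjusted p = 0.248).

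**Figure D2:**
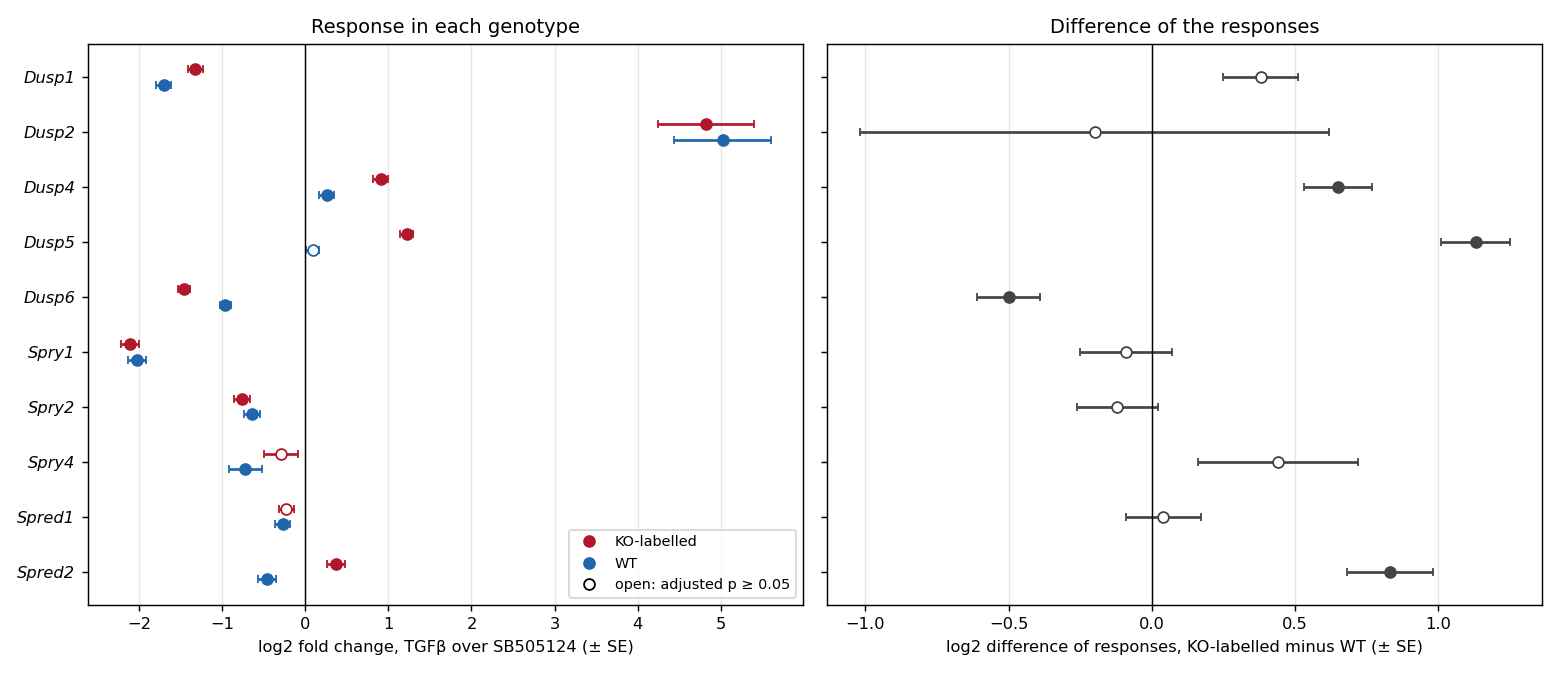
Left, log2 fold change of TGFβ over SB505124 for each gene in KO-labelled (red) and WT cells (blue); right, the difference of these responses, KO-labelled minus WT. Bars are standard errors of the limma model, and open points have an adjusted p of at least 0.05 (for the TGFβ response of Dusp2 the points are a description only); Dusp5 (1.13), Spred2 (0.83) and Dusp4 (0.65) lie to the right of 0 and Dusp6 (-0.50) to the left.

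Stretches of promoter sequence show what lies just before the Dusp genes with the largest falls and the largest difference of responses. RefSeq promoter windows on GRCm38.p6 were searched for 8 of the 10 genes. No window was available for Dusp4, and Spry4 was left out of the search, so its promoter is not described. The 250 bases before each start were searched on both strands for GGAAG (core of ETS sites), TGANTCA (AP-1), TGACGT (core of the cyclic AMP response element, CRE), CAGAC (SMAD), CCCCAAA (RREB1 core) and the SRF CArG box. The stretches are given 5′ to 3′ on the gene's strand and stop where the first GENCODE exon begins, and capitals mark any match. The Dusp1 stretch precedes its main transcripts and lies within an intron of longer annotated ones.
Dusp1, chr17:26508520-26508722, minus strand: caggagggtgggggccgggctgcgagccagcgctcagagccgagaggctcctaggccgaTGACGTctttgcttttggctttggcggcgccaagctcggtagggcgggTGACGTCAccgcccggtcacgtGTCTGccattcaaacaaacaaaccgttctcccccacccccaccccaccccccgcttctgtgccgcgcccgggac
Dusp5, chr19:53528895-53529108, plus strand: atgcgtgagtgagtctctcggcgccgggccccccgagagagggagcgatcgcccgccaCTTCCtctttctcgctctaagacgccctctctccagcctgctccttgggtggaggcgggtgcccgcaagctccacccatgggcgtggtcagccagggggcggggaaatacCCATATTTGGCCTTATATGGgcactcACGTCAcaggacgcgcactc
Dusp6, chr10:99262981-99263230, plus strand: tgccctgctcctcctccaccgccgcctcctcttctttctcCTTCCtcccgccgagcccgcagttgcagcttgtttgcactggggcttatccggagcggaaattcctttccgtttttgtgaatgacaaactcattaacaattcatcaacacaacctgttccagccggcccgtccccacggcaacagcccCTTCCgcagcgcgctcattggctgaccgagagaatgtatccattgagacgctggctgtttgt

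The Dusp5 stretch holds 2 CArG boxes side by side, beginning 82 and 72 bases before the RefSeq start. None of the other member windows searched held one, and 1.47% of all 32851 windows of that length hold at least 1. The CRE core was found for Dusp1, Dusp5 and Spred2, and in 6.47% of all windows. In Dusp1 it matched 3 times, and 2 of these matches overlap as the opposite strands of 1 palindrome. The ETS core was found in 5 of the 8 member windows and in 64.1% of all windows, and CAGAC in 2 (Dusp1 and Dusp2) and in 42.2%. AP-1 and the RREB1 core matched none of the 8 windows, and 6.75% and 5.39% of all windows. GC content was 56.0% to 70.8% in the 8 windows, against a median of 52.4%. These matches are letters in a window, and no binding was measured.

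Of the Sprouty genes, Spry1 fell most. Spry1 (chr3:37639947-37644598, plus strand) had 191 and 181 normalised reads under TGFβ and 791 and 818 under SB505124 in KO-labelled cells, and 141 and 136 under TGFβ and 564 and 567 under SB505124 in WT cells. The fall was 4.31-fold in KO-labelled cells (-2.11 ± 0.11, limma adjusted p = 2.12e-11) and 4.06-fold in WT cells (-2.02 ± 0.11, limma adjusted p = 5.27e-11), the largest fall of the 10 in both. The responses differed by -0.09 (95% interval -0.41 to 0.24, limma adjusted p = 0.842). Spry1 was higher in KO-labelled than in WT cells under TGFβ (0.42 ± 0.11, limma adjusted p = 0.00271) and under SB505124 (0.51 ± 0.11, limma adjusted p = 6.58e-04).

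Spry2 (chr14:105891947-105896819, minus strand), whose product binds the ubiquitin ligase CBL, also fell in both genotypes but started lower in KO-labelled cells. It had 481 and 401 normalised reads under TGFβ and 711 and 775 under SB505124 in KO-labelled cells, and 845 and 841 under TGFβ and 1298.5 and 1323 under SB505124 in WT cells. All 4 KO-labelled libraries lay below all 4 WT libraries. The fall was 1.69-fold in KO-labelled cells (-0.76 ± 0.10, limma adjusted p = 8.75e-06) and 1.55-fold in WT cells (-0.64 ± 0.10, limma adjusted p = 5.58e-05), and the difference of -0.12 (95% interval -0.42 to 0.18) did not pass (limma adjusted p = 0.732).

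Spry4, on chromosome 18, was the least abundant Sprouty gene. It had 75.1 and 99.4 normalised reads under TGFβ and 114 and 98.5 under SB505124 in KO-labelled cells, groups that overlap (-0.29 ± 0.20, limma adjusted p = 0.299). In WT cells it had 83.2 and 59.4 under TGFβ and 115 and 119 under SB505124, a 1.65-fold fall (-0.72 ± 0.20, limma adjusted p = 0.00675). The WT call was lost without WT SB505124 replicate 2 or WT TGFβ replicate 2 (highest limma adjusted p 0.0868). The difference of responses, 0.44 with a 95% interval from -0.16 to 1.03, did not pass (limma adjusted p = 0.472), so a difference of 2-fold was within reach of the interval.

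The SPRED genes went different ways. Spred1 (chr2:117121374-117182279, plus strand) changed little, with 2217 and 1933 normalised reads under TGFβ and 2572 and 2291 under SB505124 in KO-labelled cells, and 1654 and 1824 under TGFβ and 2029 and 2159.8 under SB505124 in WT cells. It fell 1.21-fold in WT cells (-0.27 ± 0.09, limma adjusted p = 0.0223) but did not pass in 5 of 19 alternatives (p up to 0.167), 3 of them the omission of WT SB505124 replicate 1, WT SB505124 replicate 2 or WT TGFβ replicate 1. In KO-labelled cells -0.23 ± 0.09 did not pass (limma adjusted p = 0.0622). Without 1 library the KO-labelled value ranged from -0.33 to -0.13, and 4 of these omissions brought it past the threshold.

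Spred2 (chr11:19924375-20024026, plus strand) was called in opposite directions. It had 1110 and 954 normalised reads under TGFβ and 880 and 724 under SB505124 in KO-labelled cells, and 623 and 577 under TGFβ and 816 and 837 under SB505124 in WT cells. TGFβ libraries were the higher ones in KO-labelled cells and the lower ones in WT cells, without overlap in either. Spred2 rose 1.29-fold in KO-labelled cells (0.37 ± 0.11, limma adjusted p = 0.0135) and fell 1.38-fold in WT cells (-0.46 ± 0.11, limma adjusted p = 0.00187). The rise was lost in 4 of 19 alternatives. These were the omission of KO-labelled SB505124 replicate 2 (0.23) or KO-labelled TGFβ replicate 1 (0.26), no variance trend, and a fit of only the KO-labelled libraries. The responses differed by 0.83 ± 0.15 (limma adjusted p = 0.00342), a call lost with no filter on low values (limma adjusted p = 0.0509) and with no variance trend (limma adjusted p = 0.123) but with no single library left out (highest 0.0439). Under TGFβ Spred2 was 1.72-fold higher in KO-labelled cells (0.78 ± 0.11, limma adjusted p = 4.27e-06), and under SB505124 the difference was -0.05 (95% interval -0.27 to 0.17, limma adjusted p = 0.712).

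Set directly against WT, the KO-labelled libraries had 5 of the 10 genes higher (Dusp1, Dusp4, Spry1, Spred1 and Spred2) and 2 lower (Dusp6 and Spry2) under TGFβ, where 32.7% of all genes were higher and 30.2% lower. Under SB505124 2 were higher (Dusp1 and Spry1) and 2 lower (Dusp5 and Spry2), against 29.2% and 27.7%. With 62.9% and 56.9% of all tested genes called in these comparisons, 7 and 4 of 10 are shares near or below the background and say nothing particular about these genes. Dusp1 was 1.53-fold higher under TGFβ (0.62 ± 0.09, limma adjusted p = 1.18e-05). Under SB505124 its 0.24 ± 0.09 passed (limma adjusted p = 0.0328) but was lost in 5 of 19 alternatives, among them the omission of WT SB505124 replicate 2 or KO-labelled SB505124 replicate 1 (limma adjusted p = 0.242 and 0.241). Spred1 was higher under TGFβ by 0.25 ± 0.09 (limma adjusted p = 0.0207), a call lost without WT TGFβ replicate 1 or KO-labelled TGFβ replicate 1 (limma adjusted p = 0.129 and 0.257). Under SB505124 the 0.21 ± 0.09 of Spred1 lay at the threshold (limma adjusted p = 0.0519) and passed in 5 of 19 alternatives.

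Spry2 stood 1.92-fold lower in KO-labelled cells under TGFβ (-0.94 ± 0.10, limma adjusted p = 1.74e-07) and 1.77-fold lower under SB505124 (-0.82 ± 0.10, limma adjusted p = 1.17e-06). Its chromosome moved with it. Over the 403 tested genes of chromosome 14 the median log2 fold change of KO-labelled over WT was -0.58 under TGFβ and -0.62 under SB505124, where all tested genes had a median of 0.01 in both. Of the 20 tested genes nearest to Spry2, a group added after the values were seen, 16 were lower under TGFβ and 18 under SB505124, with medians of -0.49 and -0.48; Spry2 itself lay 0.45 and 0.34 below these medians. The part of the chromosome in the difference of Spry2 was not tested. The chromosomes of the other 9 genes had medians between -0.07 and 0.29, the highest being chromosome 18 of Spry4.

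**Figure D3:**
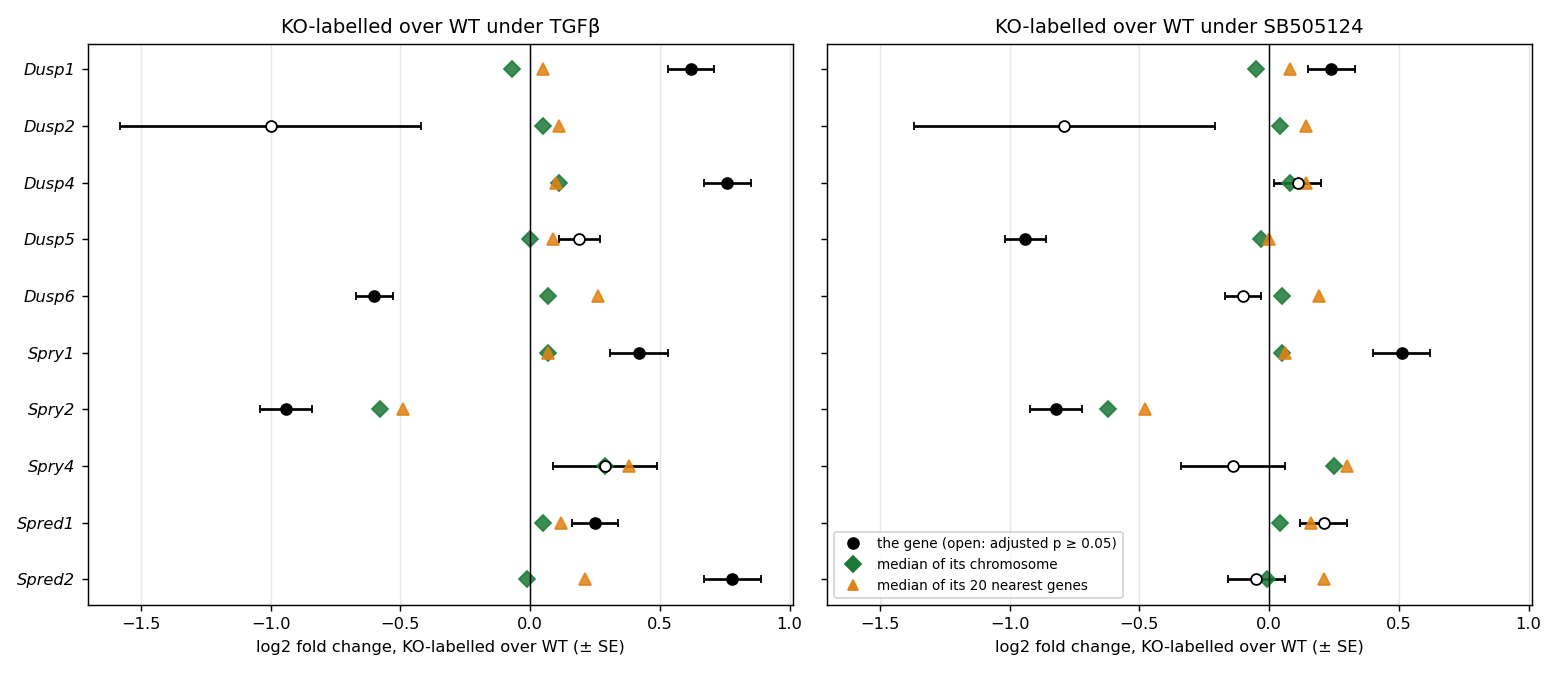
Log2 fold change of KO-labelled over WT libraries under TGFβ (left) and SB505124 (right) for each gene (circles with standard errors, open where the adjusted p is at least 0.05), beside the median of all tested genes on its chromosome (diamonds) and of its 20 nearest tested genes (triangles). Spry2 is the only one of the 10 whose chromosome median lies well below 0, at -0.58 under TGFβ and -0.62 under SB505124.

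Compared with each other per kilobase of merged exons, the 10 genes changed places between groups. Under SB505124 Dusp6 came first in both genotypes, with 1350 ± 39.5 normalised reads per kilobase in KO-labelled and 1450 ± 11.3 in WT cells (mean ± SD, n = 2). Under TGFβ Dusp6 was still first in WT cells, at 743.5 ± 20.3 per kilobase, ahead of Dusp5 (516 ± 11.9) and Dusp4 (431 ± 23.9). In KO-labelled cells under TGFβ the order at the top was Dusp4 (727 ± 32.8), Dusp5 (588 ± 21.9) and Dusp6 (489 ± 11.5), and the libraries of these 3 did not overlap. Dusp5 ranked 7 under SB505124 in KO-labelled cells, at 252 ± 2.82 per kilobase, and 4 in WT cells, at 484 ± 0.421. Spry4 and Dusp2 were the 2 lowest in every group. The libraries of neighbours in this order overlapped for Spred2 and Spry2 under TGFβ and for Spred1 and Spry2 under SB505124, both in KO-labelled cells, and for no other neighbours. The order depends on the annotated exons, since the isoforms used by these cells were not resolved.

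**Figure D4:**
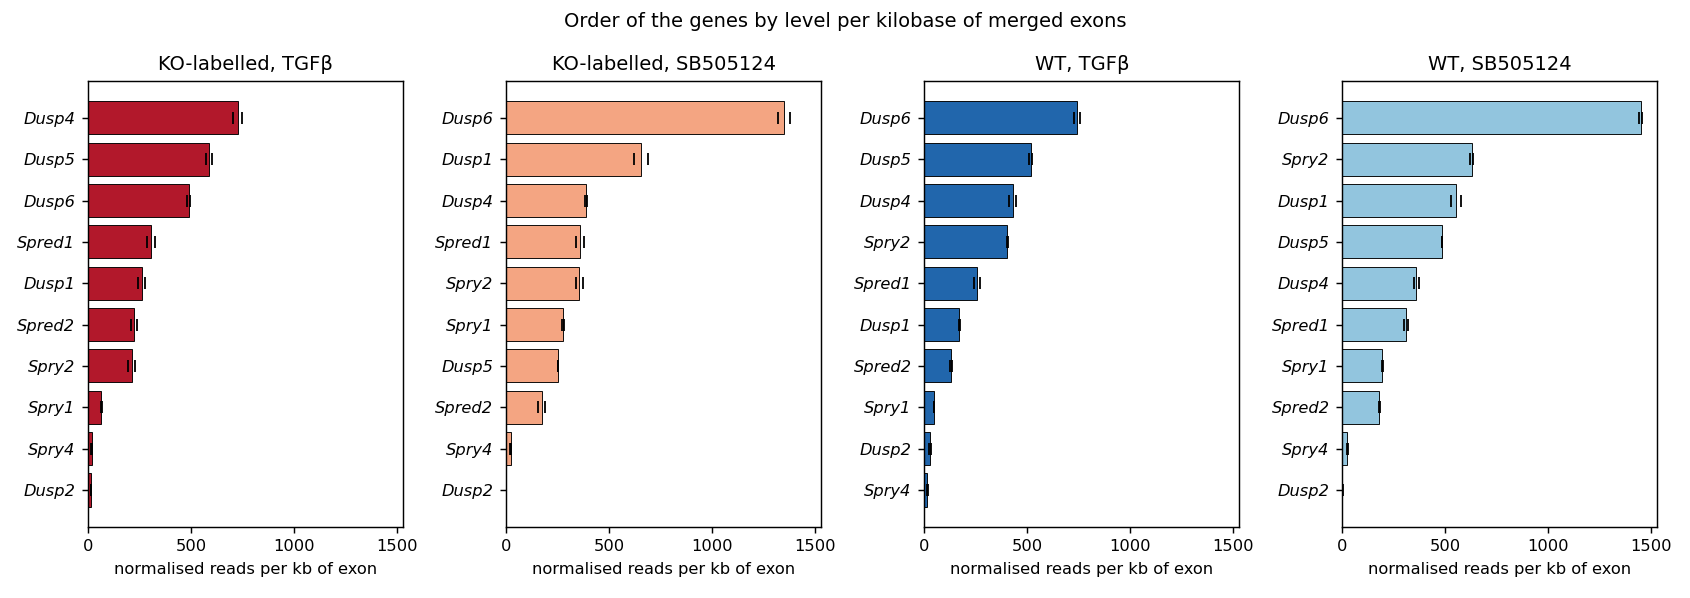
Normalised reads per kilobase of merged exons (horizontal axis, linear from 0) for the 10 genes, ordered by level within each of the 4 groups; bars are means of 2 libraries and ticks the single libraries. Dusp6 leads in every panel except KO-labelled TGFβ, where it follows Dusp4 (727) and Dusp5 (588) at 489.

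The pattern over the 8 libraries was also compared with that of 10480 other genes of mean at least 50, as the root-mean-square difference of centred log2 values. Nearest to Dusp6 was Ahr (0.108), to Dusp1 Klf3 (0.0989), to Spry1 Bmp4 (0.125) and to Spry2 Tiparp (0.0953). For the genes whose responses differed between genotypes, Dusp5 lay nearest to Bcar3 (0.0825), Dusp4 to Jade2 (0.0651) and Spred2 to Pisd-ps2 (0.102). Bcar3 averaged 1687 normalised reads under TGFβ and 783 under SB505124 in KO-labelled cells, and 1706 under TGFβ and 1503 under SB505124 in WT cells. The nearest to Spred1 was Exoc6 (0.0332) and to Spry4 Tma16 (0.16), while Dusp2 had no close match (Fam167a, 0.625). Within the 10, Dusp1 and Spry1 were each other's nearest (0.307), with 39 genes nearer to Dusp1 and 6 nearer to Spry1 than that. Spred1 and Spred2 were each other's nearest too (0.241), although 3812 and 1111 genes lay nearer to them.

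Other genes of the pathway, from lists fixed with earlier results of these data known, set these responses in context. Only up to 3 called genes per list and comparison are named. A gene named for 1 genotype or treatment may also have moved in the other. Of 7 tested relatives (Dusp3, Dusp7, Dusp8, Dusp10, Dusp14, Dusp16 and Spred3), 4 rose and 2 fell in KO-labelled cells and 4 rose and 1 fell in WT cells; over all tested genes 15.1% rose and 15.8% fell in KO-labelled cells and 20.2% rose and 23.2% fell in WT cells. Dusp10, a phosphatase of p38 and JNK, rose 2.59-fold in KO-labelled (limma adjusted p = 1.63e-10) and 1.81-fold in WT cells (limma adjusted p = 1.61e-07), and its responses differed by 0.52 (limma adjusted p = 0.0195), which did not hold in 7 of 18 alternatives. Dusp14 rose 1.48-fold in KO-labelled and 1.52-fold in WT cells. Dusp16 rose 1.66-fold in KO-labelled cells, and in WT cells it had 1904 and 1854 normalised reads under TGFβ against 1507 and 1482 under SB505124. Dusp7, an ERK phosphatase, rose 1.99-fold in WT cells, and in KO-labelled cells it had 760 and 790 against 513 and 574. Dusp10 was the only one of these relatives whose responses were called different. Dusp7 was 2.35-fold lower in KO-labelled than in WT cells under TGFβ and 1.69-fold lower under SB505124, Dusp16 was 1.86-fold higher under TGFβ, Dusp10 1.44-fold lower under SB505124, and Spred3 1.72-fold and 1.48-fold higher under TGFβ and SB505124.

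The cascade genes moved in both directions. Of 19 genes from Egfr to Rps6ka3, 4 rose and 2 fell in KO-labelled cells, where 30.9% of all genes were called, and 6 rose and 5 fell in WT cells, where 43.3% were, with median log2 fold changes of 0.06 and 0.05. Map2k1, which encodes MEK1, rose 1.47-fold in KO-labelled and 1.54-fold in WT cells, and Egfr rose 1.63-fold in KO-labelled cells. In WT cells Egfr had 4159 and 4021 normalised reads under TGFβ and 3234.5 and 3044 under SB505124. Sos1, a RAS activator gene, fell 1.33-fold in KO-labelled and 1.45-fold in WT cells, and Rps6ka3 1.39-fold in WT cells. Shc1 was the only cascade gene whose responses differed (0.42, limma adjusted p = 0.0386), which did not hold in 9 of 18 alternatives, and it was 1.54-fold lower in KO-labelled cells under SB505124. Nras was 1.56-fold lower in KO-labelled cells under TGFβ and 1.52-fold lower under SB505124, Rps6ka1 1.64-fold and 1.71-fold higher (against chromosome 4 medians of -0.68 and -0.69 in log2), and Sos2 1.80-fold higher under TGFβ.

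Among 12 other brakes on receptor and RAS signalling, 1 rose and 2 fell in KO-labelled cells and 1 rose and 5 fell in WT cells, shares near the 30.9% and 43.3% of all genes. Cbl, the gene of the ubiquitin ligase that Spry2 binds, fell 1.70-fold in KO-labelled and 2.16-fold in WT cells. Nf1, which encodes the neurofibromin that SPRED proteins recruit, fell 1.28-fold in KO-labelled cells (lost without KO-labelled SB505124 replicate 1 or KO-labelled TGFβ replicate 2, highest limma adjusted p 0.0902) and 1.45-fold in WT cells, and Lrig1 fell 1.34-fold in WT cells. The related ligase gene Cblb rose 1.35-fold in KO-labelled cells, and its responses differed by 0.72 (limma adjusted p = 0.00103, and 0.0561 without the variance trend). In KO-labelled cells Cbl was 3.49-fold higher than in WT under TGFβ and 2.75-fold higher under SB505124, Cblb 1.57-fold higher under TGFβ, and Errfi1 1.79-fold lower under SB505124. Errfi1 lies on chromosome 4, whose median log2 fold change there was -0.69. Lrig3 had no reads in the 4 KO-labelled libraries. With 3 reads set over the empty group, it was 38.3-fold lower than in WT under TGFβ and 35.6-fold lower under SB505124. These values take the WT reads as counted. Lrig3 reached the minimum for testing (mean 26.2) only through its WT libraries, so its difference is given as a description.

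Of 14 tested ERK-responsive transcripts, 4 rose and 5 fell in KO-labelled cells and 3 rose and 7 fell in WT cells, against 30.9% and 43.3% of all genes called in either direction, with medians of -0.10 and -0.14. In KO-labelled cells the immediate early gene Fos rose 3.38-fold, with 1153 and 792 normalised reads under TGFβ and 290.4 and 275 under SB505124, and Egr1 fell 3.36-fold, with 236 and 125 against 601 and 558. In WT cells Fos had 551 and 536 under TGFβ and 551 and 392 under SB505124, and Egr1 had 393 and 390 against 760 and 627. The responses of Fos differed by 1.53 ± 0.22 (limma adjusted p = 4.38e-04, and 0.115 without the variance trend), the only difference called on that list. Cyr61 rose 1.86-fold in KO-labelled and 2.05-fold in WT cells, and the ephrin receptor genes Epha4 and Epha2 fell 2.02-fold and 1.87-fold in WT cells. In KO-labelled cells Epha4 had 4698 and 4028 normalised reads under TGFβ and 7713.5 and 7162 under SB505124. Epha2 had 9767.5 and 8589 against 11486 and 13175 there. Set against WT, 4 of the 14 were higher and 5 lower in KO-labelled cells under TGFβ, where 62.9% of all tested genes were called. Under SB505124 1 was higher and 6 were lower, where 56.9% were called. Named by smallest adjusted p, Ier3 (2.24-fold), Epha2 (2.10-fold) and Lif (1.93-fold) were lower in KO-labelled libraries than in WT under TGFβ. Under SB505124 they were 2.18-fold, 2.92-fold and 2.31-fold lower, and Epha2 lies on chromosome 4.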

How the data were processed

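The data are RNA-seq libraries of NMuMG cells, 8 in 4 groups of 2. The authors deposited 1 table of 18102 genes whose signal values are read counts divided by a size factor per library. Build mm10, HTSeq 0.6.1p1, FastQC 0.11.5 and DESeq2 3.4 are named in the submitters' processing notes. An aligner is not given in the sources used here. All values (100%, within 0.01 reads) were whole multiples of 1 step per library, so reads were recovered for count-based alternatives. Size factors were 0.875 to 1.16, and 26 symbols turned into dates were not named.

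Genes with a mean of at least 10 (12498) were fitted over all 8 libraries with limma 3.58.1 (R 4.3.3), variance trend, on log2 of the value plus 1, with group means and no block. P-values were adjusted by Benjamini-Hochberg over all tested genes (threshold 0.05). Folds from the model are on that log2 scale and understate changes of low genes. Counting error is small at this depth except for Dusp2 and Spry4 and, to a lesser degree, Spry1 under TGFβ (119 to 198 reads per library). Alternatives were 2 other pseudocounts, 2 other filters, 2 other scalings, no trend, fewer libraries, a replicate block, edgeR 4.0.16, DESeq2 1.42.0 and each library left out. The procedure was checked on simulated counts.

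The members and lists were chosen with earlier results of these data known. Named genes are the 10 members, Rreb1, up to 3 called genes per list and comparison with the smallest adjusted p, and the genes of most similar pattern. Coordinates and exon lengths come from GENCODE M21 (GRCm38, which is mm10), promoter windows from RefSeq (GRCm38.p6).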

Additional observations from a re-analysis of the deposited data

Results flagged for a closer look

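By the test of the difference itself, the TGFβ response differed between KO-labelled and WT cells for 4 of the 10 genes and for 4 genes of the other lists. The log2 difference, KO-labelled minus WT, was 1.13 for Dusp5, 0.83 for Spred2, 0.65 for Dusp4 and -0.50 for Dusp6. Among the listed genes it was 1.53 for Fos, 0.72 for Cblb, 0.52 for Dusp10 and 0.42 for Shc1. For Dusp5, Dusp10 and Shc1 the level under SB505124 was lower in KO-labelled cells (log2 -0.94, -0.52 and -0.62), and for Dusp4, Spred2 and Cblb the level under TGFβ was higher (0.76, 0.78 and 0.65). Of these calls, that of Dusp5 held in all 18 alternatives. Those of Fos and Cblb were lost in 1 of 18, those of Dusp4 and Spred2 in 2, that of Dusp6 in 5, that of Dusp10 in 7 and that of Shc1 in 9.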

How the results depend on the processing

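Of 50 results (10 genes in 5 comparisons), 31 kept direction and side of the threshold in every alternative run. Both counts include the TGFβ responses of Dusp2. Its presence among the tested genes already required a difference, so their stability is no support. The 19 settings gave 934 values, of which 31 lost a call, 15 gained one and 10 changed sign or became 0. The difference of responses depended most on the setting: 352 genes were called, but 134 without a filter on low values and 47 without the variance trend, where 1 of the 10 genes stayed higher and 0 lower. Leaving out each library gave 141 to 1027 genes, 2 to 3 members higher and 0 to 1 lower. For TGFβ in KO-labelled cells 3864 genes became 2320 (without KO-labelled TGFβ replicate 2; 2332 without KO-labelled SB505124 replicate 1) to 4410. For TGFβ in WT cells 2 members rose with Dusp2 counted, 1 with a mean of at least 50, which removes Dusp2, and 1 to 2 with a library left out. For KO-labelled against WT under SB505124, 1 member was higher without a filter, without the trend and with scaling from genes outside chromosomes 4 and 14, and 1 to 3 with a library left out.

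Changes of sign or to 0 were confined, in the alternatives run, to results that had not passed. The difference of responses of Dusp2 (-0.20) was 0.15 with a pseudocount of 0.5, 2.14 in edgeR and -0.996 to 0.591 with a library left out. With a library left out it was -0.059 to 0.138 for Spred1, -0.252 to 0.0119 for Spry2 and -0.0869 to 0.0599 for Rreb1, and the KO-labelled against WT value under SB505124 was -1.59 to 0 for Dusp2 and -0.191 to 0.0911 for Spred2. Except where construction shows it (fewer genes or libraries), the cause was not tested. The labels give replicate numbers but no shared culture or day, and same-numbered libraries deviated together only in part (correlations -0.199 to 0.198 across genes). With the replicate block 252 differences of responses were called, with 3 members higher and 1 lower, and no call of the 10 genes changed. Depth limits Dusp2 and Spry4 most, and Spry1 had 119 to 198 reads in the TGFβ libraries.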

Other observations

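Added up, the 10 genes had 10124 and 9261 normalised reads under TGFβ and 13355 and 12577 under SB505124 in KO-labelled cells, and 8863 and 8729 under TGFβ and 13401 and 13540 under SB505124 in WT cells. The 5 DUSP genes together had a mean of 5871 ± 253 under TGFβ and 8079 ± 295 under SB505124 in KO-labelled cells, and 5404 ± 160 under TGFβ and 8557 ± 32.0 under SB505124 in WT cells (SD, n = 2). The 3 Sprouty genes had 714 ± 46.2 under TGFβ and 1653 ± 53.4 under SB505124 in KO-labelled cells, and 1053 ± 23.2 under TGFβ and 1993 ± 22.7 under SB505124 in WT cells. The SPRED pair had 3108 ± 311 under TGFβ and 3234 ± 309 under SB505124 in KO-labelled cells, a gap smaller than the SD, and 2339 ± 88.1 under TGFβ and 2921 ± 107 under SB505124 in WT cells. Sums weight long and abundant transcripts, and no test was run on them.

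Dusp9, an ERK phosphatase gene below the minimum for testing, had no reads in the 4 KO-labelled libraries. WT libraries had 11.4 and 14.7 normalised reads under TGFβ and 13.2 and 21.0 under SB505124. With 3 reads set over the empty group, Dusp9 was 8.83-fold lower in KO-labelled cells under TGFβ and 12.7-fold lower under SB505124. These values take the WT reads as counted.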
